A study of Mus musculus with 7 samples.

Results

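*Crhbp*, *Pcp4*, *Dleu7*, *Ctxn3*, *Kcnh5*, *Calca* and *Calcb* are 7 genes of unclear role in the posterior second heart field (pSHF), out of 27827 genes named on the array. They were chosen by the very contrast described here, the lower signal of *Shh* mutant pools against wild-type pools on these same arrays, so their differences between genotypes are descriptions and carry no test. All probes bearing one of the 7 names were taken, which gave 8 probes, 2 of them for *Calca*. A probe entered the comparison across genes when it was well above background, by the scanner software's own criterion, on every array of at least 1 genotype, and 14891 genes had such a probe. This held for 6 of the 7 genes, the exception being *Calcb*.

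The pSHF is mesenchyme dorsal to the early heart tube that supplies cells to the atrial septum, and the study asked which of its transcripts depend on Sonic hedgehog (*Shh*). Posterior fields were dissected at E9.5 from embryos of *Shh* heterozygous parents on a mixed C56B/6 (as the labels spell it) and CD-1 background, the mothers having been superovulated with PMS-G and HCG. Shh-/- embryos made up 4 pools and Shh+/+ embryos 3 pools, each hybridized to 1 single-colour array. The Shh-/- embryos carry the mutation in every cell, and a pool mixes several embryos, so that variation between single embryos was not measured. The dissection kept the foregut and left out the heart and the neural tube.

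Pools keep the numbers of the labels, 1 to 4 for the mutant and 1, 3 and 4 for the wild type, and values are given in that order throughout. Arrays with equal numbers came from 1 slide, where the mutant pool held the first position each time, so the effects of genotype and position cannot be told apart. The slide of mutant pool 2 held no wild-type pool, and its array may have leaked during hybridization according to the labels. Of the 41174 probes, 59.8% to 70.6% per array were well above background. Posterior SHF markers including *Isl1*, *Tbx5*, *Osr1*, *Wnt2*, *Hoxb1*, *Gata4* and *Mef2c* were well above background on all 7 arrays.

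In Hedgehog signaling, the secreted ligand Shh binds the receptor Ptch1, which frees the membrane protein Smo from inhibition and lets Gli transcription factors activate targets such as *Ptch1*, *Gli1* and *Hhip*. As a check of the labels, *Shh* itself had a normalized log2 signal of 9.22 to 9.67 in the mutant pools and 9.98 to 10.74 in the wild-type pools, which leaves 47.4% of the wild-type signal (limma's adjusted p = 0.0651). Whether the *Shh* probe lies in the part of the gene that the mutation removes is not stated, so its remaining signal does not measure functional transcript. Of the targets, *Hhip* fell by 2.83 on the log2 scale (limma's adjusted p = 0.00125), while *Ptch1* and *Gli1* were at −1.17 and −1.02 without passing the threshold (limma's adjusted p = 0.142 and 0.0676).

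The 7 genes fall into 3 kinds by what their products do. *Crhbp*, *Calca* and *Calcb* belong to secreted peptide systems. *Crhbp* encodes the binding protein that sequesters corticotropin-releasing hormone and some of its relatives. *Calca* encodes calcitonin or, by alternative splicing, the vasodilator calcitonin gene-related peptide (CGRP), and *Calcb* encodes the beta form of CGRP. *Kcnh5* encodes a voltage-gated potassium channel of the ether-a-go-go family and *Ctxn3* a small membrane protein of the cortexin family. *Pcp4* encodes a small IQ-motif protein that binds calmodulin and alters how it exchanges calcium, best known from Purkinje cells, and *Dleu7* is named after a region lost in lymphocytic leukemia. None of them is a textbook component of the Hedgehog pathway.

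Each value was read from a 60-base probe. The first 30 bases of the probes are printed here in lower case, 5′ to 3′ on the strand of the transcript, because every value rests on such short stretches and because *Calca* was read at 2 separate places. The 2 *Calca* probes start 1628 bases apart, each matched in the array's annotation to its own transcript variant, and share no run longer than 6 bases. *Calca* and *Calcb* are close relatives that lie side by side on chromosome 7, with 89642 bases between the nearer *Calca* probe and the *Calcb* probe, and those 2 probes also share no run longer than 6 bases.
Crhbp, chr13:96201933-96201962, minus strand: agctggagccatttgagctagaaacctcga
Pcp4, chr16:96747241-96747270, plus strand: caaacctgaaatgcatgaagagaaacccat
Dleu7, chr14:62895515-62895544, minus strand: tttcaagcatattgacttactgttgacttt
Kcnh5, chr12:75998301-75998330, minus strand: ggcctgccaaagacaattattcaaaacata
Calca variant 2, chr7:121775234-121775263, minus strand: tattgtgcatcgtgttgtatgtgactctgt
Calca variant 1, chr7:121776862-121776891, minus strand: ggcagtcatctggcttcctagtagagcttc
Calcb, chr7:121866534-121866563, plus strand: ccgttgttacttgagaggaatgaaaccaag

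These positions refer to mm9, on which the array was annotated.

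Signals are given as normalized log2 values, and a difference is always mutant minus wild type on that scale. Differences are given with a standard error from the spread between pools (n = 4 and n = 3). In pooled tissue, fewer cells of a type and less RNA per cell cannot be told apart.

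*Crhbp* was low and even in the mutants and higher in every wild-type pool. Its normalized log2 signals were 4.85, 4.85, 4.96 and 4.88 in the mutants. The wild-type signals were 6.87, 6.54 and 7.24. The groups lay 1.58 apart at their nearest values, and the mutant pools spread by an SD of 0.05 against 0.35 in the wild type. The means were 4.88 and 6.88 (SE of the difference 0.17), which leaves 25.0% of the wild-type signal. The mutant signal was well above background in 2 of the 4 pools only, with unprocessed spot intensities of 49.1 to 69.7 against 116.8 to 189.0 in the wild-type pools, so the narrow mutant spread belongs to signals near the lower end of the measurable range. Leaving out 1 array moved the difference between −1.78 without wild-type pool 4 and −2.21 without wild-type pool 3.

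*Calca*, the other measured gene of a secreted peptide, varied widely between pools. Its wild-type SD was 0.61 at the variant 2 probe and 0.79 at the variant 1 probe, against 0.64 for *Pcp4*. The variant 2 probe of *Calca*, the brighter one, gave log2 signals of 8.58, 8.66, 9.04 and 7.98 in the mutants. The wild type gave 10.65, 10.23 and 9.44 at the same probe. The highest mutant pool, number 3, came within 0.40 of the lowest wild-type pool, number 4, the smallest separation of the 6 measured genes. The difference was −1.54 (SE 0.39), 34.5% of the wild-type signal.

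The variant 1 probe of *Calca* lies further upstream in the gene and is the dimmer one. Its log2 signals were 5.65, 5.87, 6.03 and 5.69 in the mutants, against 7.18, 8.21 and 6.65 in the wild type. Again no mutant pool reached a wild-type pool, and the difference was −1.54 (SE 0.40), 34.5% of the wild-type signal. The 2 probes disagreed on which wild-type pool was highest, pool 1 for variant 2 and pool 3 for variant 1, while both put pool 4 lowest. Both placed mutant pool 3 highest among the mutants. Within a pool the difference between the 2 probes ran from 2.02 in wild-type pool 3 to 3.47 in wild-type pool 1. The correlation of their deviations from the genotype means was 0.49 over the 7 pools, which share arrays and tissue, and is given as a description.

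**Figure D1:**
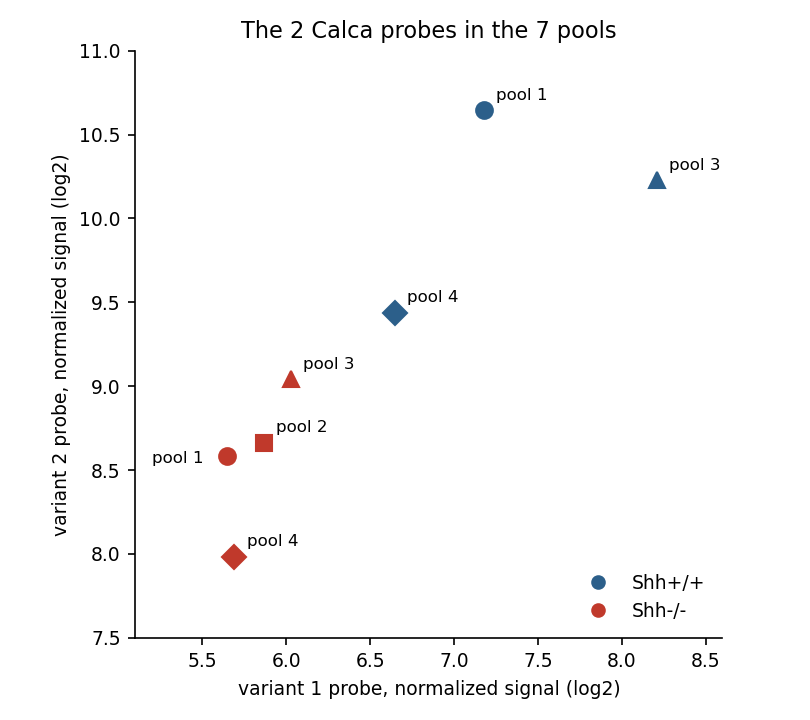
Normalized log2 signal of the variant 2 probe of Calca (vertical) against that of its variant 1 probe (horizontal), 1 point per pool, blue for Shh+/+ and red for Shh-/-. The 4 mutant points lie below and to the left of the 3 wild-type points on both axes, and wild-type pools 1 and 3 change places between the axes.

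*Calcb* did not show the pattern that its grouping with the other genes implies. The mutants had log2 signals of 3.26, 3.09, 3.31 and 3.32 and the wild type 3.55, 3.26 and 3.37, so that the groups overlapped. It was not well above background on any of the 7 arrays, with spot intensities of 27.0 to 36.1 over local backgrounds of 19.5 to 26, and no fold change is given. These arrays therefore hold no measurement of its dependence on *Shh*, in contrast to its neighbour *Calca*.

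*Kcnh5* was measurable in the wild type alone. Log2 signals were 4.15, 4.11, 4.04 and 4.10 in the mutants, against 5.19, 5.09 and 5.32 in the wild type. The probe was well above background in all 3 wild-type pools and in 0 of the 4 mutant pools, so the mutant signal is only a bound. With each mutant pool set to at least the lowest signal well above background on its array, the mutants lay 1.66-fold lower than the wild type. This value is called the bound of *Kcnh5* here, but it is not a strict limit. In mutant pool 3 the signal of 4.04 exceeded that lowest value, 3.93, without being well above background. The bound also holds only for the background correction and scaling used here. The fitted difference was −1.10 (SE 0.06) but only −0.36 with quantile normalization, −0.56 with local background subtracted and −0.64 without background correction. The unprocessed intensities were 39.3 to 50.3 in the mutant pools against 52.4 to 67.2 in the wild-type pools.

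*Ctxn3* is read by a probe on chromosome 18 (57637225 to 57637284, mm9). It gave log2 signals of 4.55, 4.33, 4.91 and 4.39 in the mutants and 5.93, 6.69 and 5.86 in the wild type. Pool 3 was the highest of its genotype on both sides. The groups lay 0.94 apart, and the difference was −1.61 (SE 0.27), 32.7% of the wild-type signal, with 1 of the 4 mutant pools well above background. Without wild-type pool 3 it was −1.38 and without wild-type pool 1 it was −1.77.

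*Pcp4* had the largest fitted difference, within its error of that of *Crhbp*, and, with *Calca* and *Dleu7*, was well above background in every pool. Mutant log2 signals were 7.90, 7.84, 7.60 and 8.02. Wild-type log2 signals were 10.61, 9.37 and 9.71. Wild-type pool 1 stood above the other 2, and even the lowest wild-type pool was 1.35 above the highest mutant pool. The difference was −2.06 (SE 0.33), 24.0% of the wild-type signal, and without wild-type pool 1 it was −1.70.

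*Dleu7* varied least between pools among the genes that were well above background in every pool. The mutants read 6.65, 6.41, 6.61 and 6.45 on the log2 scale and the wild type 8.09, 7.91 and 7.98. SDs were 0.12 in the mutants and 0.09 in the wild type, and the groups lay 1.26 apart. The difference was −1.47 (SE 0.08), 36.2% of the wild-type signal, and stayed between −1.42 and −1.52 whichever array was left out.

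**Figure D2:**
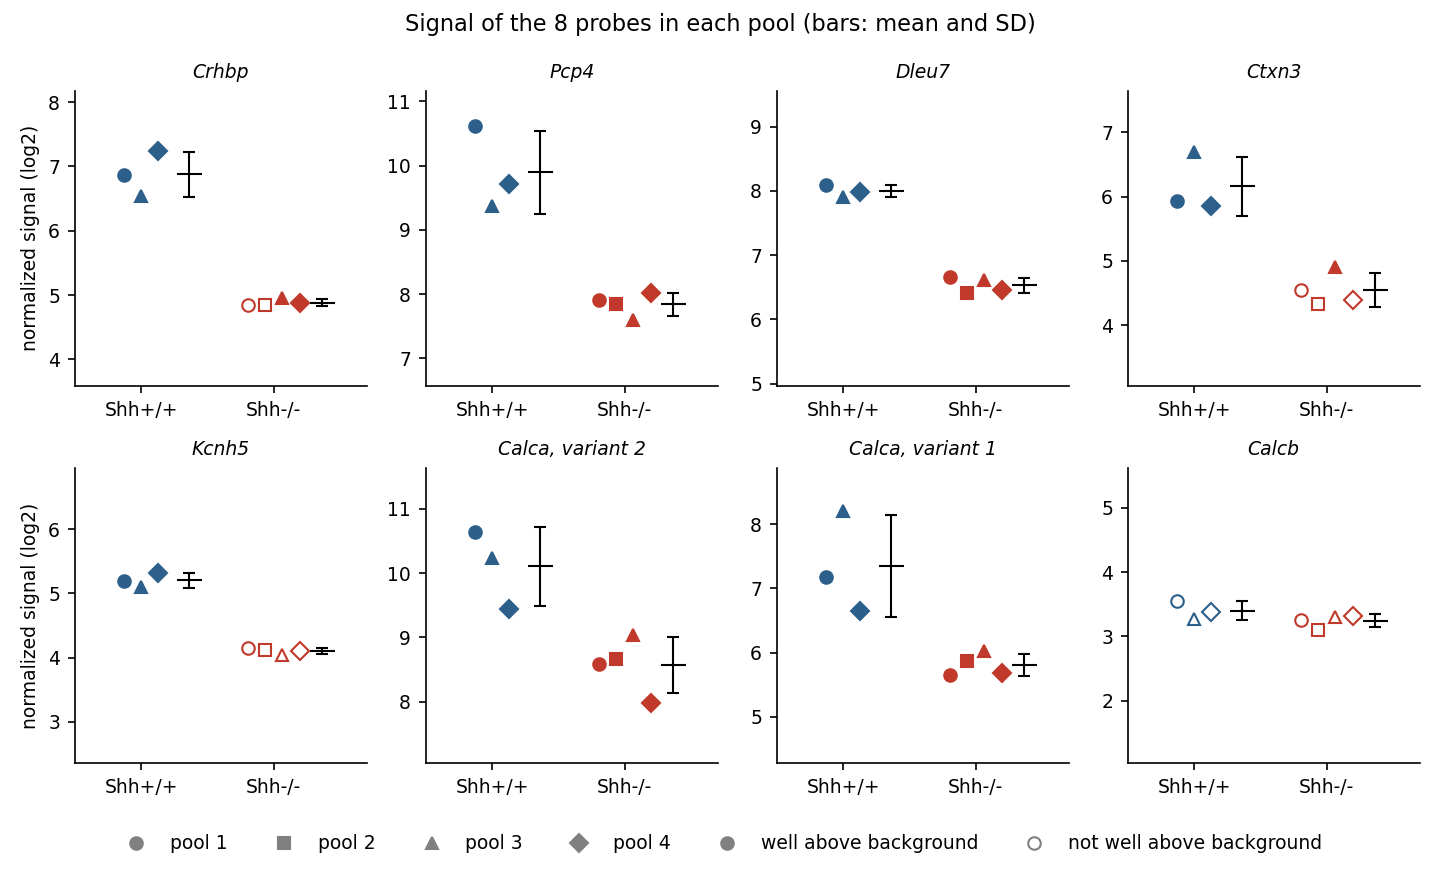
Normalized log2 signal of the 8 probes in the 3 Shh+/+ pools (blue) and 4 Shh-/- pools (red), with a marker shape for each pool number, open where the probe was not well above background, and mean and SD in black. Every panel spans the same log2 range; the groups are apart for 7 probes and overlap for Calcb.

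Over the genes, 6 of the 7 were at least 2-fold lower by the fitted difference, or 5 with *Kcnh5* at its bound. No bound was set for *Crhbp* and *Ctxn3*, whose mutant signals were well above background in only 2 and 1 of the 4 pools. Among all genes tested, 0.584% were at least 2-fold lower. The same 6 genes had every mutant pool below every wild-type pool, which 3.8% of the genes with a value in all 7 pools also showed. They were also lower in the mutant on each of the 3 shared slides, as were 10.8% of all genes tested. As the genes were chosen by this contrast, nothing is read from these counts. The median difference over the 6 measured genes was −1.57, with *Kcnh5* at its bound or not, or −1.54 over all 7 with the fitted value of *Calcb* included, and the median of all genes tested was 0.03. With adjustment over all probes, limma called 0.396% of genes lower and 0.389% higher at an adjusted p under 0.05, as background for the genes tested further on.

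Within slides, the 6 genes kept their direction but not their order. On slide 1 the difference was −2.71 for *Pcp4*, −2.06 for variant 2 of *Calca* and −2.03 for *Crhbp*. On slide 3 it was −1.77, −1.18 and −1.58 for the same probes, and on slide 4 it was −1.69, −1.45 and −2.36. *Pcp4* was thus furthest from 0 on slide 1 and *Crhbp* on slide 4, whereas on slide 3 the variant 1 probe of *Calca* was furthest, at −2.18. That probe was at −1.53 on slide 1 and at −0.96, less than 2-fold lower, on slide 4. With 1 array left out it ran from −1.12 without wild-type pool 3 to −1.86 without wild-type pool 4. The differences of *Dleu7* stayed within −1.30 to −1.53 over the slides. Those of *Ctxn3*, within −1.38 to −1.78, rest on mutant signals of which 1 in 4 was well above background. For *Kcnh5* a narrow range over the slides says little, because no mutant pool was well above background.

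The array with the possible leak did not decide any of these values. Without mutant pool 2 the differences were −2.04 for *Crhbp*, −2.06 for *Pcp4*, −1.44 for *Dleu7*, −1.59 for *Ctxn3*, −1.17 for *Kcnh5*, −1.57 for variant 2 of *Calca* and −1.58 for its variant 1. Wild-type pools mattered more. For each of the 7 probes outside *Calcb*, both ends of the range with 1 array left out came from leaving out a wild-type pool, which is also the group with 3 pools in place of 4.

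**Figure D3:**
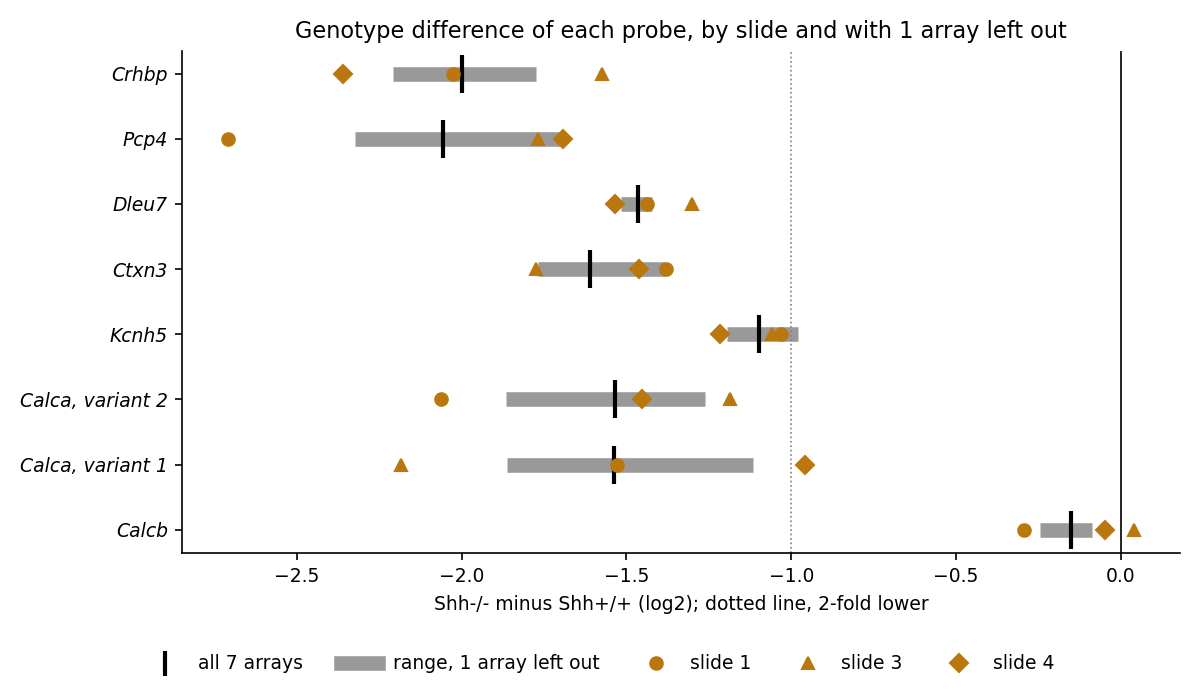
Difference between genotypes (Shh-/- minus Shh+/+, log2, horizontal) for each probe: the black tick uses all 7 arrays, the grey bar spans the values with 1 array left out, and the markers give the differences on slides 1, 3 and 4. All values of the upper 7 probes lie below 0, and the bar is shortest for Dleu7 (−1.42 to −1.52).

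Wild-type pools also differed more among themselves than mutant pools did for 5 of the 6 measured genes, all but *Dleu7*. Over all genes tested, the wild-type SD was the larger one in 43.2%, and the median SD was 0.16 in the wild type and 0.17 in the mutants. Signals near background are compressed on this scale, and 3 of these 5 genes, *Crhbp*, *Ctxn3* and *Kcnh5*, had mutant pools that were not well above background. In *Pcp4* and *Calca*, which were well above background in every pool, the wild-type SDs were 0.64 and 0.61 against 0.18 and 0.44 in the mutants.

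Whether the genes rose and fell together from pool to pool was described by the correlation of deviations from the genotype means, over 7 pools. The median over the 15 pairs of measured genes was 0.19, with 10 pairs above 0, against a median of 0.0047 over all pairs of tested probes. The highest value was 0.78 for *Crhbp* and *Kcnh5*, and the lowest was −0.81 for *Ctxn3* and *Kcnh5*. Both pairs hold mutant signals near background, as *Kcnh5*, *Ctxn3* and *Crhbp* were well above it in 0, 1 and 2 of the 4 mutant pools. Between the genes measured in all 7 pools, the values were 0.39 for *Pcp4* and *Dleu7*, 0.20 for *Pcp4* and *Calca* and 0.43 for *Dleu7* and *Calca*. *Ctxn3* also ran against *Pcp4* (−0.66) and *Crhbp* (−0.63), as it was highest in wild-type pool 3 where those 2 were lowest. No wild-type pool was extreme for all 6 genes: pool 1 was highest for 3, pool 4 for 2 and pool 3 for 1, while pool 3 was lowest for 4 and pool 4 for 2. Every pair shares arrays, slides and pools, and without wild-type pool 3 the median turned to −0.22.

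**Figure D4:**
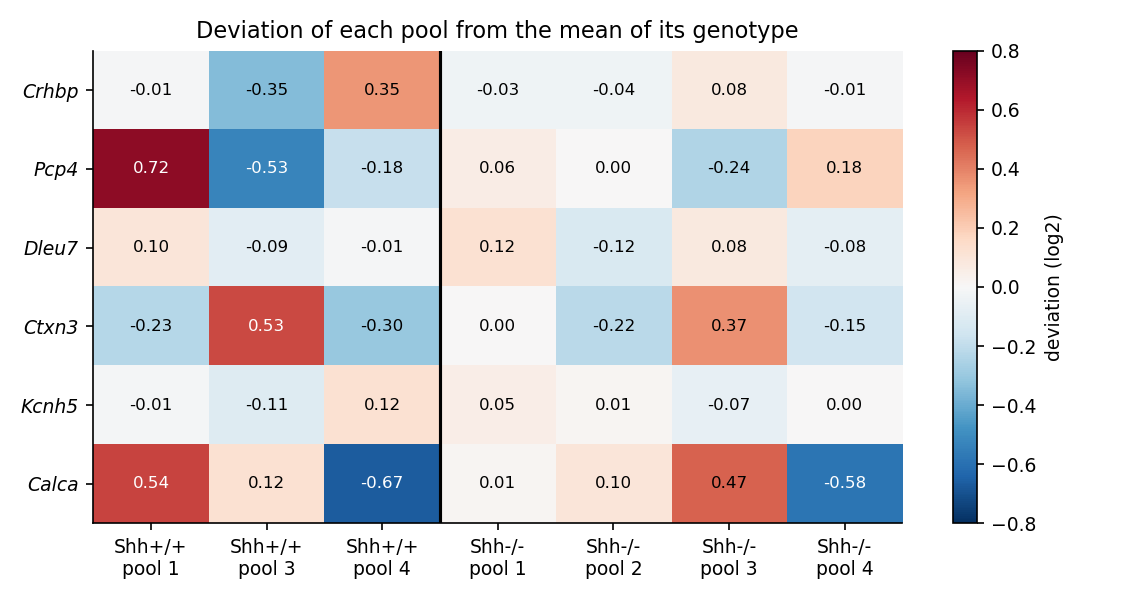
Deviation of each pool from the mean of its genotype (log2, colour and printed value) for the 6 measured genes in rows, with 3 Shh+/+ pools left of the line and 4 Shh-/- pools right of it. The deviations of Pcp4 (0.72 in wild-type pool 1) and Calca (−0.67 in wild-type pool 4) are the furthest from 0, and no pool lies above, or below, the mean of its genotype for all 6 genes.

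The probes outside the 7 genes whose profile over the pools was nearest to their mean profile were found among 23019 tested probes, by the root mean square difference after centring on the wild-type mean. The nearest was *Saa1* at 0.14, followed by *Dlx1* at 0.17, *Ces1* at 0.24, *Saa2* at 0.25 and *Six2* at 0.26. *Dlx1* and *Six2* encode homeodomain transcription factors, and *Ces1* a carboxylesterase. Of the 4 mutant pools, 0 had *Ces1* well above background, so its distance rests on mutant signals at background. *Saa1* and *Saa2* encode serum amyloid A proteins that are near-identical, so their 2 probes may read the same transcripts and are uncertain. By way of scale, the distances of the 6 genes themselves from their mean profile ran from 0.14 for *Dleu7* to 0.46 for *Pcp4*.

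For single genes, the nearest probe was *Saa1* for *Dleu7* (0.13), *Foxi2* for *Ctxn3* (0.17), *Irx1* for *Kcnh5* (0.15) and *Csf2rb* for *Calca* (0.18). *Foxi2* encodes a forkhead transcription factor, *Irx1* an Iroquois homeodomain factor and *Csf2rb* the shared beta subunit of several cytokine receptors. The *Foxi2* signal rose well above background in only 2 mutant pools. These names follow from likeness of profile over 7 pools alone.

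None of the listed partners and relatives of the 7 genes was called by limma, while 9.11% of all genes tested had an unadjusted p under 0.05. Among 7 genes of the corticotropin-releasing hormone system on the array, 4 were tested and 0 called by limma (1 at an unadjusted p under 0.05), with a median difference of −0.14. The receptors *Crhr1* and *Crhr2* were at −0.51 and 0.15 (limma's adjusted p = 0.290 and 1.00). The precursor gene *Pomc*, the brightest of them, was at a log2 signal of 10.50 ± 0.13 (SD, n = 4) in the mutants and 10.55 ± 0.12 (SD, n = 3) in the wild type. The urocortin genes *Ucn*, *Ucn2* and *Ucn3* did not rise well above background in any pool.

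Of 8 genes of the calcitonin and CGRP family, 7 were tested, 0 called by limma (1 at an unadjusted p under 0.05), and 6 lay above 0, with a median of 0.18. *Calcrl*, which forms the CGRP receptor with Ramp1, was at 0.10 and *Ramp1* at 0.55 (limma's adjusted p = 1.00 and 0.257). The calcitonin receptor gene *Calcr* was at 0.19, and *Ramp2*, the brightest of the family, at 0.18. The genes for the receptors of both *Calca* products were thus measured in these pools, and their differences did not pass the threshold in either direction.

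All 6 calmodulin and IQ-motif genes were tested and limma called 0, or 0 at an unadjusted p under 0.05, with differences of 0.00 to 0.23. *Calm2*, the brightest, had a mean log2 signal of 16.60 in both genotypes, and the difference of *Pcp4l1*, the closest relative of *Pcp4*, was 0.18. *Ctxn1*, the other cortexin gene found on the array, was at −0.06 (not called). Of 7 other *Kcnh* channel genes, 2 were tested, *Kcnh2* (−0.28) and *Kcnh8* (−0.19), and neither was called or had an unadjusted p under 0.05, while *Kcnh4* and *Kcnh7* were too dim in all pools. All 7 genes listed around *Dleu7* on chromosome 14 were tested, limma called 0 of them, or 0 at an unadjusted p under 0.05, and their differences ran from 0.04 to 0.37. The brightest of them, *Rnaseh2b*, was at 0.08. Of 5 Hedgehog pathway genes, all 5 lay below 0 with an unadjusted p under 0.05, and limma called 1, *Hhip*.

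Because several of the 7 genes are better known from nerve and endocrine cells than from heart progenitors, markers of the other cell types that the dissection could hold were read beside them. Of 11 neuronal marker genes 10 were tested and 0 called by limma (3 at an unadjusted p under 0.05), with a median difference of −0.26 and summed normalized signals of 8320 to 12455 in the mutant pools and 10946 to 11554 in the wild-type pools. Of 10 neuroendocrine genes, 7 were tested and 0 called (2 unadjusted, median −0.24), with sums of 4037 to 5018 and 4200 to 4399. Of 7 neural crest and glial genes, 7 were tested and 0 called (2 unadjusted, median −0.14, sums of 11501 to 14396 and 12053 to 15883). All 9 foregut epithelial genes were tested and 0 called (3 unadjusted, median −0.15, sums of 119485 to 143896 and 111684 to 130143). In these 4 lists the sums overlapped between genotypes. Below 0 lay 8 of 10 neuronal, 5 of 7 neuroendocrine, 7 of 7 neural crest and glial and 7 of 9 foregut genes tested. Of all 14891 genes tested, 6015 lay below 0.

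For 2 other marker lists the summed signals did not overlap between genotypes. Of 6 sclerotome genes, all tested, 4 had an unadjusted p under 0.05, and the median was −0.97. The summed signals were 2742 to 3332 in the mutants against 3939 to 5820 in the wild type. *Nkx3-2* (0.13) and *Sox9* (0.02) lay above 0. Limma called 2 lower, *Pax1* at −3.01 and *Pax9* at −2.54 (limma's adjusted p = 0.0423 and 0.0354), the latter well above background in 1 mutant pool. Neither was called with the slide as a replicate block, with 75th percentile scaling, without the filter on dim probes, in the authors' values, or without mutant pool 2 or any 1 wild-type pool. *Pax1* and *Pax9* are also expressed in the pharyngeal pouches. Of 8 neural tube genes 4 were tested and 0 called (2 unadjusted), and all 4 lay below 0 with a median of −0.35. The sums were 2160 to 3349 against 4389 to 5184, carried mainly by *Nkx6-1* (−0.85, limma's adjusted p = 0.0676). *Pax3* was at −0.57, *Olig2* at −0.13 and *Pax6* at −0.03, so the sums do not stand for the list as a whole. *Zic2* and *Irx3* did not rise well above background in any pool, and *Sox1* was so in 1 mutant pool. The 8 posterior SHF genes had a median of −0.16 with 0 called (2 unadjusted), and overlapping sums of 42572 to 53329 and 46622 to 52350. What part these differences in marker signal have in the differences of the 7 genes was not tested.

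The sequence just upstream of the transcription start was available for 5 of the 7 genes, *Crhbp*, *Pcp4*, *Dleu7*, *Kcnh5* and *Calca* (RefSeq, GRCm38.p6, 250 bases), and was searched on both strands for the Gli motif GACCACCCA and its shorter core CCACCCA, which lies within it. The 9-base motif was found in 0 of these 5 windows and in 0.225% of 32851 windows of the same length. The 7-base core was found in 1 window, that of *Kcnh5*, 28 bases before the start, and in 8.11% of all windows. A match is a string of letters and was not tested as a binding site. The window of *Kcnh5* is shown with the core in capitals, and that of *Crhbp* as one without it. They also differ in composition, with 65.6% G and C and 16 CG dinucleotides in *Kcnh5* against 47.2% and 9 in *Crhbp*; the range over the 5 windows was 46.8% to 65.6%.
Kcnh5, chr12:75177333-75177582, minus strand: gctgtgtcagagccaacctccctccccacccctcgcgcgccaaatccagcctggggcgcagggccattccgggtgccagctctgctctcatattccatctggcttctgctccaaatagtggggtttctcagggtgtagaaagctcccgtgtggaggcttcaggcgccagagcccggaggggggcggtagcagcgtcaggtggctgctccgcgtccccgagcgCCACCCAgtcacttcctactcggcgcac
Crhbp, chr13:95444832-95445081, minus strand: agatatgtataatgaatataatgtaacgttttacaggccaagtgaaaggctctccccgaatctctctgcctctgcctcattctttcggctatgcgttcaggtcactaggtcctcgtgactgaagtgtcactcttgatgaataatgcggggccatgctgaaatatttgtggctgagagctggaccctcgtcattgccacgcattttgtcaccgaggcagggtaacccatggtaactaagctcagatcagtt

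How far the sizes of these differences depend on the processing varied with the brightness of the probe. For *Pcp4*, the difference was −1.89 to −2.15 over quantile normalization, percentile scaling and both other background corrections, and for variant 2 of *Calca* it was −1.45 to −1.59. The dimmer variant 1 probe gave −1.05 to −1.60. For the dim *Kcnh5* the same alternatives gave −0.36 to −1.45, for *Ctxn3* −0.75 to −1.84 and for *Crhbp* −1.11 to −2.26, quantile normalization giving the value nearest to 0 in all 3. *Dleu7* lay between, at −1.13 to −1.56. Across all alternatives and arrays left out, 105 differences were recomputed and all 105 were negative. *Calcb* was not among them, and its difference, from signals near background, changed sign with 75th percentile scaling. The other genes were chosen for their lower mutant signal on these same arrays, so nothing is read from the shared sign.

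**Figure D5:**
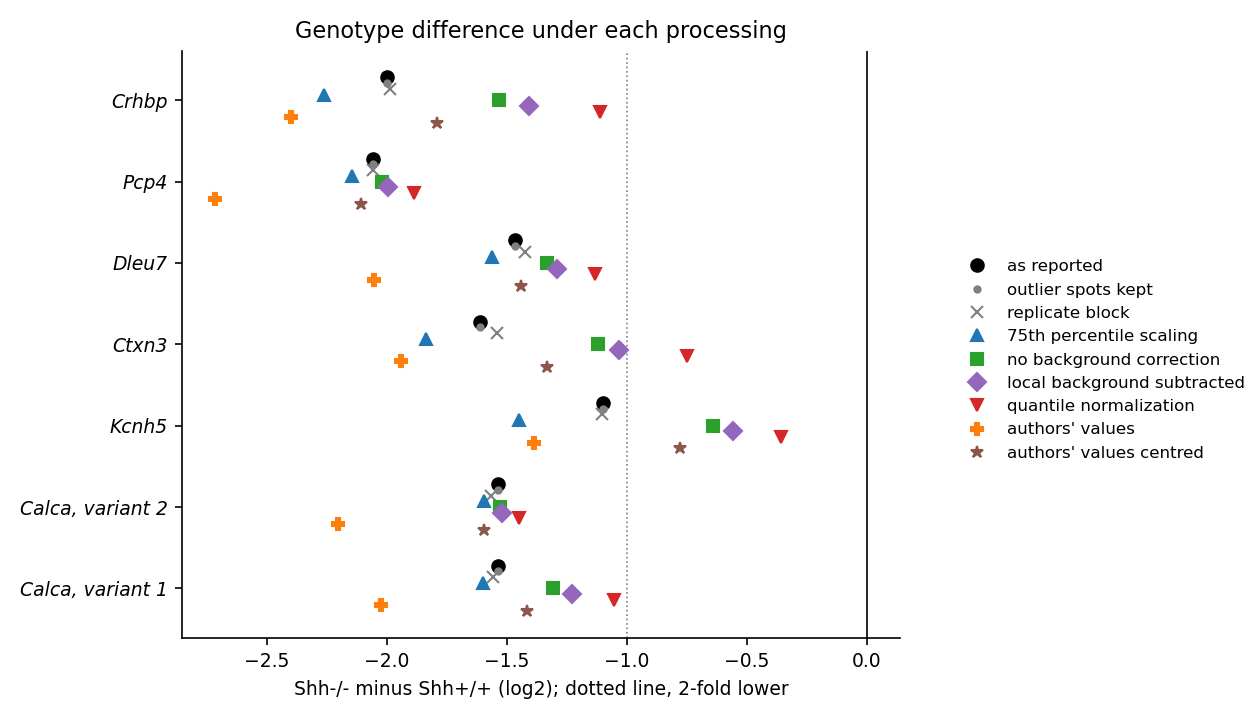
Difference between genotypes (Shh-/- minus Shh+/+, log2, horizontal) of the 7 probes well above background in the wild type, as reported (black) and under 8 other treatments of the same arrays. All points lie below 0; those of Kcnh5, Ctxn3 and Crhbp spread most, and those under quantile normalization (red) lie nearest to 0.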

How the data were processed

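Gene expression was measured in 7 pools of E9.5 posterior second heart field, 4 Shh-/- and 3 Shh+/+, grouped by their GEO titles (the strain and genotype entries of the labels are exchanged in content). Intensity values in the deposited scan files are each spot's mean signal and local background, which the authors extracted with Feature Extraction 10.5.1.1. A deposited table of values holds the authors' log2 values after normalization, with array medians of 5.50 to 9.93. Per the study's methods, outlier features were excluded and signals background corrected, VSN normalized and log2 transformed; the background method is not given in the sources used here.

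Here, mean signals were corrected by normexp on 153 negative control spots per array (offset 50) and normalized by VSN, written from its published model (trimming share 0.9, 7 iterations, 5 strata). Outlier spots (155 to 206 of 43379 per array) were left out and 0 spots were saturated. The medians of the arrays then differed by at most 0.18 and a typical probe had an SD of 0.19 among pools of 1 genotype. Precision is limited by the number of arrays. A gene was represented by its brightest probe. Genotypes were compared by limma 3.58.1 (R 4.3.3, data.table, version 1.17.8) over 23117 tested probes with Benjamini-Hochberg adjustment. The scripts were tested on simulated data. Tables and figures used Python 3.11.15, pandas 2.3.3, numpy 2.4.6 and matplotlib 3.10.9. The p-values set the difference of genotype means against the spread between these pools, moderated by limma across probes. They cannot separate genotype from position on the slide.

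The 7 genes, and the related families and marker lists, were chosen with earlier results of these data known. The genes named are the 7, *Shh*, *Ptch1*, *Gli1* and *Hhip*, family genes past the threshold or else the brightest of the family, and the 5 probes nearest to the mean profile with the nearest of each gene (not all of these are reported here); other family and marker genes were named after their values were seen.

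Replicate numbers pair arrays by slide, from the slide barcodes in the labels. Deviations from the genotype means correlated at 0.192, 0.239 and 0.0329 within slides, against −0.220 to 0.187 between slides. The alternatives were percentile scaling, quantile normalization, other background corrections, the authors' values, outlier spots kept, no filter on dim probes, the mean of a gene's probes, the slide as a block, and each array left out; local background subtraction and centring of the authors' values were added after seeing the data.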

Additional observations from a re-analysis of the deposited data

How the results depend on the processing

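All 105 recomputed differences of the 7 probes measured in the wild type were negative. Their genes were chosen by this contrast, so nothing is read from that sign. Of the 105 differences, 83 moved by less than 1 SD between pools and 22 by more. The median over the 7 genes, *Calcb* included, −1.54 as reported, was −1.11 with quantile normalization, −1.29 with local background subtracted and −1.42 to −1.70 with 1 array left out. Over the 6 measured genes it was −1.57, −1.12, −1.35 and −1.48 to −1.74. In the authors' values, where *Calcb* was not used, it was −2.13, or −1.52 once centred. At least 2-fold lower were 6 genes as reported, 4 with quantile normalization and 5 with local or no background correction. With 1 array left out, 5 to 6 genes were at least 2-fold lower and 6 to 7 had no overlap. The count of 7, reached without wild-type pool 3, includes *Calcb*, which was not well above background on any array. In the authors' values 5 genes had no overlap. Once these were centred, 4 had none and 5 were at least 2-fold lower. The median correlation of deviations, 0.19, was 0.91 in the authors' values, where array medians differ, 0.38 once these were centred, and −0.22 to 0.29 with 1 array left out.

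Limma called 129 probes as reported, 57 with 75th percentile scaling, 33 without the filter on dim probes, and 0 in the authors' values, centred or not. With 1 array left out it called 12 to 139: 12, 36, 73 and 139 without mutant pools 3, 2, 4 and 1, and 18, 31 and 43 without wild-type pools 1, 3 and 4. Family genes called, 1 as reported, were 0 in the authors' values, centred or not, and 1 to 2 with 1 array left out (2 without wild-type pool 4). Marker genes called, 2 as reported, were 0 with 75th percentile scaling, with no filter on dim probes and in the authors' values, centred or not, 4 with quantile normalization and with local or no background correction, and 0 to 3 with 1 array left out (0 without mutant pool 2 or any of the 3 wild-type pools, 1 without mutant pool 3 or 4, 3 without mutant pool 1). With the replicate block, which drops mutant pool 2 because it shares no slide, the median over the 7 genes was −1.54 (−1.55 over the 6 measured) and 6 genes were at least 2-fold lower, while 11 probes and 0 marker genes were called. *Hhip* was not called in the authors' values (−3.41, limma's adjusted p = 0.934; centred, −2.80, 0.117), and *Shh* was called without wild-type pool 4 (limma's adjusted p = 0.0402). Normexp with the local background was not run, as its fit did not converge. Signals near background limit *Kcnh5*, *Ctxn3*, *Crhbp* and *Calcb*.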
